A study of Homo sapiens with 3 samples.

Results

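The 10 genes described here encode members of the BCL2 family of survival and death proteins. BCL2, BCL2L1, MCL1 and BCL2L2 are antiapoptotic, BAX and BAK1 form the pores of the death pathway, and BBC3, PMAIP1, BCL2L11 and BID are BH3-only activators of death. They are 10 of the 20163 protein-coding genes of the annotation, and each symbol matched a single gene record. A peak was assigned to a gene when any of its bases lay within 25 kb of the gene body, which gave 10 of the 9941 RUNX2 peaks and 22 of the 27246 CBFB peaks. The peaks came from ChIP-seq, in which DNA bound by a protein is precipitated with an antibody and sequenced. The cells were SAOS2 cells, an established human osteosarcoma line that lacks p53. The paper names no treatment of the cells for these ChIP-seq libraries. One library was made with a custom-made antibody against RUNX2 and another with an antibody against CBFB, and a library of input DNA was not analysed here. RUNX2 is a transcription factor of bone that contacts DNA through its Runt domain, and CBFB is its non-DNA-binding partner. There was 1 library per antibody, so the values below have no replicate error and carry no test.

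Proteins of the BCL2 family decide whether the outer membrane of the mitochondrion stays closed. BAX and BAK1 assemble into pores that release cytochrome c, which leads to caspase activation. Antiapoptotic members hold BAX and BAK1 in check, and BH3-only proteins either neutralise the antiapoptotic members or activate BAX and BAK1 directly. BBC3 (PUMA), PMAIP1 (NOXA) and BAX are well-known target genes of p53, so their loci are of interest in a line without it. The study examined survival of osteosarcoma cells after RUNX2 depletion, and the question here is where RUNX2 and CBFB were found around these genes.

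RUNX2 peaks were found near 7 of the 10 genes, namely BCL2L1, MCL1, BCL2L2, BAX, BBC3, PMAIP1 and BID. Over all protein-coding genes, 36.0% had a RUNX2 peak within the same reach. CBFB peaks were found near the same 7 genes and near BAK1 and BCL2L11, which gave 9 of 10, beside 62.2% of all protein-coding genes. BCL2 was the single member with no peak of either list. The members' windows, which are the gene body with 25 kb on each side, had a median length of 65.9 kb, and those of all protein-coding genes had a median of 77.2 kb. When a peak counted only for the gene whose transcription start was nearest to its midpoint, RUNX2 peaks remained at BCL2L1, BBC3, PMAIP1 and BID. These were 4 of 10 members, beside 22.4% of protein-coding genes. By the same count CBFB peaks remained at 8 of 10 members, beside 43.0% of protein-coding genes.

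**Figure D1:**
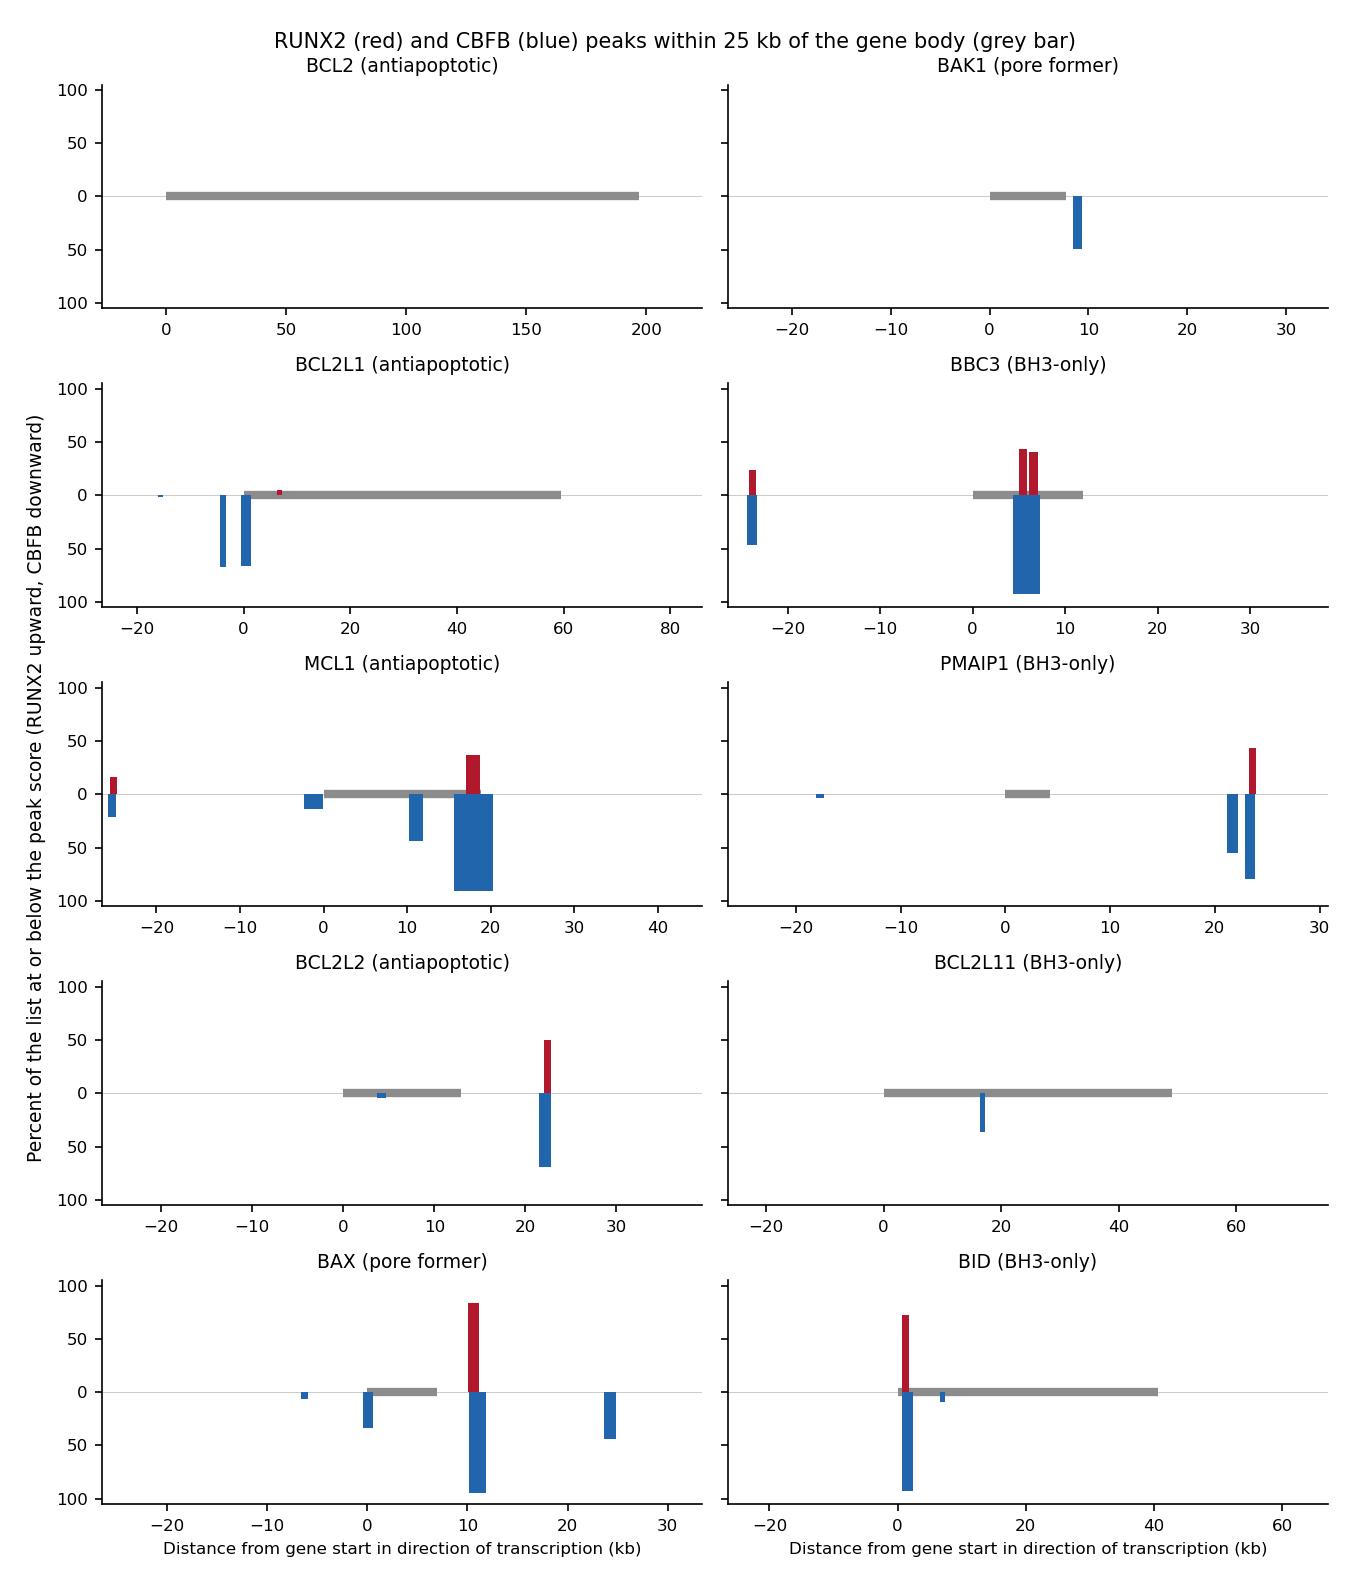
Position and score rank of all RUNX2 peaks (red, upward) and CBFB peaks (blue, downward) near the 10 genes. The horizontal axis gives the distance from the gene start in kb in the direction of transcription, the grey bar the gene body, the width of a coloured bar the width of the peak, and its height the percent of the same list with a score at or below that of the peak. BCL2 has no bar, BAK1 and BCL2L11 have blue bars only, and in 9 of 10 cases a red bar stands above a blue one.

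Each peak carried a score, read here as the MACS score, which is the log10 of its p-value multiplied by -10. Scores depend on the depth of a library, which is unknown, so a peak is described by its percentile, the percent of its own list with a score at or below its own. Positions are in hg19 (GRCh37) and are counted from 1. Each peak was searched for the RUNX core TGTGGT, read on the opposite strand as ACCACA, since it is the sequence that the Runt domain recognises. It is shared by all RUNX proteins. The sequences below show RUNX2 peaks in which a core lay close to the peak midpoint, the bound stretches next to PMAIP1, and the cores in the single CBFB peaks of BAK1 and BCL2L11.

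Within 100 bp of the midpoint of its RUNX2 peak, BCL2L1 held 1 core, which lay 1 bp from the midpoint. The core nearest to the midpoint of the second BBC3 peak lay 97 bp away. Both windows have 201 bases and are given on the plus strand, with the core in capitals, here as its complement. Neither overlaps an annotated UTR.
BCL2L1 intron, chr20:30304876-30305076, plus strand: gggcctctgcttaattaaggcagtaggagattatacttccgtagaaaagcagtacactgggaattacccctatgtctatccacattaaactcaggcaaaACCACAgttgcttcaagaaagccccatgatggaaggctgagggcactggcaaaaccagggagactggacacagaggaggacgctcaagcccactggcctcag
BBC3 intron, chr19:47730452-47730652, plus strand: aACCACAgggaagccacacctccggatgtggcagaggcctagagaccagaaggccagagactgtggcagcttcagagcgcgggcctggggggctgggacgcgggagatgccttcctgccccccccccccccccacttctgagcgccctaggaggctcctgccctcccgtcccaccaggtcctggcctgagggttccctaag

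The BID peak and the PMAIP1 peak held no core in the window of 201 bases around their midpoints. The BID window is shown because it belongs to the highest-ranked RUNX2 peak for which a member had the nearest start. It has no capitals since no core was found in it, and its G+C content was 63.7%.
BID intron, chr22:18256192-18256392, plus strand: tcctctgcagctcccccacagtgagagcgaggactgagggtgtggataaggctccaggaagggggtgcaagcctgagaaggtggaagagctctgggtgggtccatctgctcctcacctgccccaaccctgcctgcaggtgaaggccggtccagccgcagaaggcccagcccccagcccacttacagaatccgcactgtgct

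In the PMAIP1 peak the cores lay 149 and 265 bp from the midpoint, inside the stretch shared with the CBFB peak. They are shown as 30 bases centred on the core, in the strand that reads TGTGGT, with the core in capitals. Another CBFB peak of the same window held 3 cores within 19 bases, the last 2 of them directly joined.
PMAIP1 core A, chr18:57590520-57590549, minus strand: ttacagacaaagTGTGGTcttgtcaggtga
PMAIP1 core B, chr18:57590636-57590665, minus strand: tccaatgactgaTGTGGTcacactgtactc
PMAIP1 core cluster, chr18:57588733-57588762, plus strand: gaagcTGTGGTtTGTGGTTGTGGTgggggt

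The remaining cores shown are those of the highest-ranked RUNX2 peak, which lies in the 5′ UTR of FTL next to BAX, of the RUNX2 peak upstream of MCL1, and of the CBFB peaks of BAK1 and BCL2L11. Capitals mark the core, and the strand is the one that reads TGTGGT.
BAX and FTL, chr19:49468724-49468753, plus strand: cagcaccgttttTGTGGTtagctccttctt
MCL1 and ENSA, chr1:150577327-150577356, plus strand: atcagaagccagTGTGGTgacttccaggat
BAK1, chr6:33539046-33539075, minus strand: aggcgggtgggcTGTGGTtagcctactcgt
BCL2L11, chr2:111893653-111893682, plus strand: tgccaggggcgtTGTGGTtttcccgttgct

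Among the antiapoptotic genes, BCL2L1, MCL1 and BCL2L2 had RUNX2 and CBFB peaks and BCL2 had none. BCL2L1 encodes BCL-XL and lies on chr20:30252255-30311792, minus strand. Its single RUNX2 peak (chr20:30304512-30305440, score 52.1) was in an intron 6.82 kb past the gene start and 2.24 kb from an alternative BCL2L1 start. It stood at percentile 5.11, the lowest of the 10 RUNX2 peaks, and was the only one that no CBFB peak overlapped. It was also the peak with a core closest to its midpoint, in the first sequence printed above. CBFB gave 3 peaks around BCL2L1. The peak at the gene start (chr20:30310396-30312221, score 180) lay with its midpoint 24 bp from an annotated BCL2L1 start, at percentile 66.4. The peak 3.82 kb upstream of the gene start held 4 cores and stood at percentile 67.1. The third was at the start of TPX2, a spindle assembly gene, and stood at percentile 1.12, the lowest of the 22 CBFB peaks.

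MCL1, a short-lived antiapoptotic protein, had 2 RUNX2 and 4 CBFB peaks. The gene record (chr1:150533371-150552214, minus strand) is longer than the canonical transcript because it includes further annotated transcripts. The RUNX2 peak at chr1:150533440-150535152 had a score of 71.15 and stood at percentile 37.1. It lay 17.9 kb past the gene start, in an intron of the long record outside the canonical transcript, and the nearest start was that of ADAMTSL4, 3566 bp away. It held no core. The CBFB peak that enclosed it had a score of 471 and stood at percentile 90.6, and the midpoints of both peaks were 12 bp apart. The second RUNX2 peak (chr1:150576920-150577754, percentile 16.3) lay in an ENSA intron, 24.7 kb from the MCL1 gene body and thus just inside the reach. Its core lay 4 bp from the midpoint, and it overlapped a CBFB peak at percentile 21.7. Of the other CBFB peaks, the one next to the MCL1 start had its midpoint 1.18 kb upstream, held 5 cores and stood at percentile 14.1. The peak in the body of the gene record stood at percentile 43.8. MCL1 thus had a CBFB peak, but no RUNX2 peak, within 5 kb of its start.

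BCL2L2, which encodes BCL-W, had 1 RUNX2 and 2 CBFB peaks, none of which had a BCL2L2 start as the nearest. The RUNX2 peak (chr14:23790058-23790833, score 83.9) stood at percentile 49.7. It lay 22.4 kb past the gene start and 221 bp from the start of PABPN1, a nuclear poly(A)-binding protein, in an intron of the BCL2L2-PABPN1 readthrough gene. The CBFB peak that enclosed it stood at percentile 69.5. The other CBFB peak was 124 bp from the start of PPP1R3E, inside the BCL2L2 gene record, and stood at percentile 4.09. Its midpoint was 687 bp from an annotated BCL2L2 start.

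BCL2, the founding antiapoptotic gene (chr18:60790579-60987361, minus strand), had no peak in its body of 197 kb or in the flanks. The nearest peak of either list lay 3.20 Mb away and was the overlapping pair near PMAIP1. Long genes more often had a peak in reach. Of the 1536 protein-coding genes at least as long as BCL2, 53.0% had a RUNX2 peak and 75.6% had a CBFB peak.

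BCL2 lay in a stretch of 12.5 Mb without a peak of either list (chr18:57591142-70087126). Counted in known bases of the build, so that unsequenced gaps such as centromeres added no length, this was the longest such stretch on chromosomes 1 to 22. The next held 5.46 Mb of known bases, also on chromosome 18. The stretch of BCL2 began 1 base past the end of the PMAIP1 RUNX2 peak and held the starts of 32 protein-coding genes, so the absence of peaks was not particular to BCL2. Chromosome 18 had 66 RUNX2 and 259 CBFB peaks, which is 0.884 and 3.47 per Mb of known sequence, the lowest densities among chromosomes 1 to 22 in both lists. The lists hold no read depth and no copy number, so fewer copies of this DNA and less binding to it cannot be told apart.

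**Figure D2:**
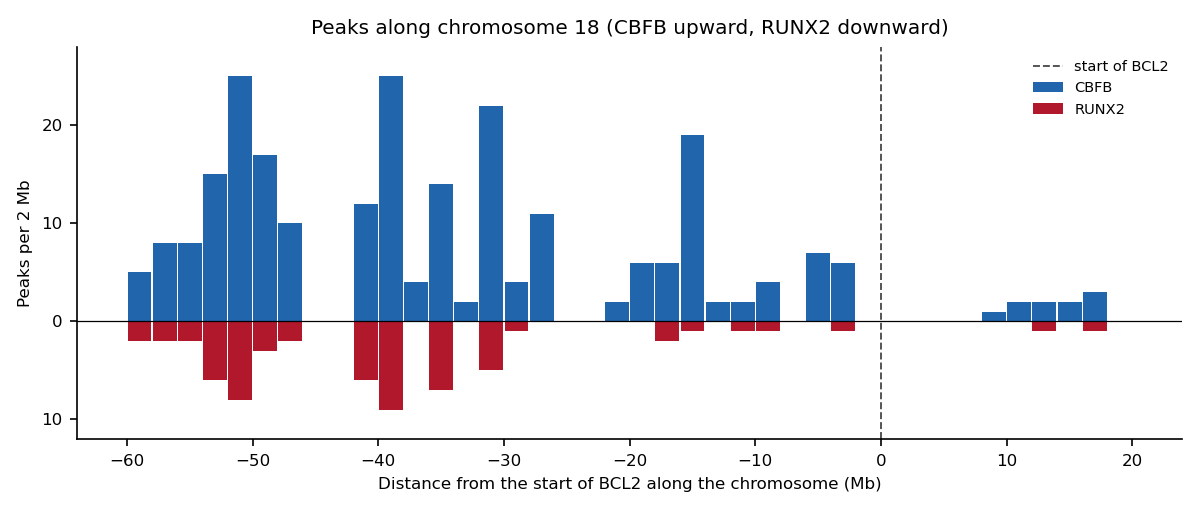
CBFB peaks (blue, upward) and RUNX2 peaks (red, downward) along chromosome 18, counted in bins of 2 Mb. The horizontal axis gives the distance from the start of BCL2 in Mb along the chromosome, and the dashed line marks that start. The 5 bins from 2 Mb before to 8 Mb past that start are empty in both lists.

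Of the pore formers, BAX had peaks of both proteins and BAK1 had a CBFB peak only. BAX (chr19:49458072-49465055, plus strand) had 1 RUNX2 peak, with a score of 159.8 at percentile 83.3, the highest of the 10. This peak (chr19:49468140-49469197) lay 3.09 kb past the end of the gene body, and its midpoint was in the 5′ UTR of FTL, 102 bp from the start of that gene. FTL encodes the light chain of ferritin. The CBFB peak over it had a score of 671 at percentile 94.9, the highest of the 22. At the start of BAX itself there was no RUNX2 peak. A CBFB peak (chr19:49457623-49458664) had its midpoint 11 bp from a BAX start, stood at percentile 33.4 and held a GC box and an E-box but no RUNX core. The other CBFB peaks were 6.25 kb upstream of the gene start, at percentile 6.66, and in an intron of GYS1, a glycogen synthase gene, at percentile 44.4.

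BAK1 (chr6:33540324-33548070, minus strand) had 1 CBFB peak, 669 bp past the end of the gene body, in an intron of GGNBP1. The peak (chr6:33538674-33539655, score 118) stood at percentile 48.9 and held 1 core, printed above, 104 bp from its midpoint. The nearest RUNX2 peak was 191 kb from the gene body.

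Among the BH3-only genes, BBC3, PMAIP1 and BID had peaks of both lists, and BCL2L11 had a CBFB peak only. BBC3, whose product PUMA binds all main antiapoptotic members, had the most RUNX2 peaks of the 10 genes. The gene (chr19:47724079-47736023, minus strand) had 3 RUNX2 peaks in reach, and 94.4% of protein-coding genes had fewer while 2.54% had more. The peaks at chr19:47728907-47729939 and chr19:47730107-47730998 lay side by side in an intron, 6.60 and 5.47 kb past the gene start. Their midpoints were 1023 and 106 bp from the start of a shorter BBC3 transcript, so both were internal to the longest form of the gene. They stood at percentiles 40.4 and 43.4, both below the middle of the RUNX2 list. A single CBFB peak of 2941 bp (chr19:47728761-47731701, score 556) enclosed both and stood at percentile 92.8. It held 5 cores, and 3 of these lay inside the RUNX2 peaks. The third RUNX2 peak was 23.9 kb upstream of the gene start, at the start of CCDC9, and stood at percentile 23.5. Its midpoint was 6 bp from that of a CBFB peak at percentile 46.3, the closest pair found, and neither held a core.

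PMAIP1, which encodes the MCL1-binding protein NOXA, had no peak at its own start. Its window on chromosome 18 (gene at chr18:57567228-57571537, plus strand) held 1 RUNX2 and 3 CBFB peaks, all in intergenic sequence. The RUNX2 peak (chr18:57590457-57591141, score 76.65) lay 23.6 kb past the gene start, with PMAIP1 as the nearest protein-coding start, and stood at percentile 43.2. Its CBFB partner stood at percentile 79.2 with a score of 269.6. The CBFB peak with the cluster of cores (chr18:57588386-57589442) stood at percentile 55.0 and had no RUNX2 partner. Clusters of 3 cores within 19 bases were rare and were found in 16 of 27204 CBFB peaks (0.0588%) and in 8 of 9928 RUNX2 peaks (0.0806%). This cluster was singled out after the sequences had been read. The third CBFB peak, 17.7 kb upstream, stood at percentile 3.34.

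BID, which is cut by caspase 8 and then acts on BAX and BAK1, had the RUNX2 peak closest to the start of its gene record. The peak (chr22:18255715-18256870, score 123) lay 1.24 kb past the start of the gene (chr22:18216904-18257536, minus strand) and 490 bp from another BID start. It stood at percentile 72.8, and its CBFB partner (score 538) stood at percentile 92.3. Neither held a core anywhere. A second CBFB peak, 6.97 kb past the gene start, stood at percentile 9.14 and held 2 cores.

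BCL2L11 encodes BIM, a BH3-only protein that binds all main antiapoptotic members. Its single peak in reach was a CBFB peak in an intron (chr2:111893321-111894259, score 92.1), 16.8 kb past the gene start, at percentile 36.5. A RUNX2 peak lay just outside the reach, 26.2 kb beyond the gene body (chr2:111876955-111926021, plus strand).

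To contrast the antiapoptotic with the proapoptotic genes, peaks were counted per gene and per 100 kb of window, because BCL2 is far longer than the others. The 4 antiapoptotic genes had 4 RUNX2 peaks and the 6 proapoptotic genes had 6, a mean of 1.0 per gene in both classes. CBFB peaks numbered 9 and 13, which gave means of 2.25 and 2.17 per gene. The median RUNX2 density was 1.25 peaks per 100 kb over the antiapoptotic and 1.43 over the proapoptotic genes, and the median CBFB density was 2.96 and 2.72. Pooled over the summed windows of each class, the densities were 0.819 and 1.43 for RUNX2 and 1.84 and 3.09 for CBFB, both lower over the antiapoptotic genes. Without BCL2, whose long window holds no peak, the pooled antiapoptotic densities were 1.66 and 3.73, both above the proapoptotic ones. The ranges over the single genes overlapped. RUNX2 densities ran from 0 to 2.91 over the antiapoptotic genes and from 0 to 4.84 over the proapoptotic genes, and CBFB densities ran from 0 to 5.81 and from 1.01 to 7.02. The medians over all protein-coding genes were 0 for RUNX2 and 1.14 for CBFB. The direction of the difference between the medians turned with the reach and, for RUNX2, when BCL2 was left out (1.59 against 1.43), so no difference in peak density between the classes was shown.

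**Figure D3:**
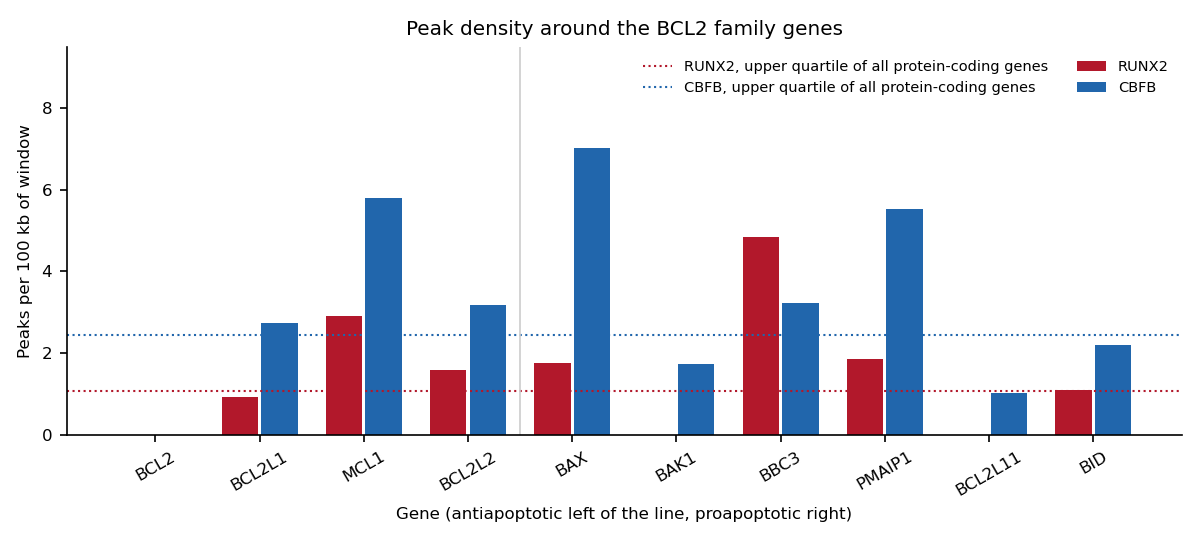
RUNX2 peaks (red bars) and CBFB peaks (blue bars) per 100 kb of window for each gene, with the antiapoptotic genes left of the vertical line and the proapoptotic genes right of it. Dotted lines give the upper quartile over all protein-coding genes, 1.07 for RUNX2 and 2.44 for CBFB. In each list 6 of the 10 genes lie above that line, and both classes hold high and low genes.

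The peaks of both classes were also set side by side by position and rank. A member's own start was the nearest for 1 of 4 RUNX2 peaks near antiapoptotic genes and for 4 of 6 near proapoptotic genes. For CBFB the counts were 4 of 9 and 10 of 13. Over all pairs of a protein-coding gene and a peak in its reach, the gene's own start was the nearest for 57.8% of RUNX2 and 59.5% of CBFB pairs. None of the 4 antiapoptotic RUNX2 peaks scored above the list median, against 2 of 6 proapoptotic ones, those of BAX and BID. For the BAX peak the nearest start was that of FTL. The median percentile was 26.7 for the antiapoptotic and 43.3 for the proapoptotic RUNX2 peaks, and it was 43.8 and 46.3 for CBFB. With 4 and 6 RUNX2 peaks these are descriptions of single peaks.

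The RUNX2 peaks near the 10 genes were mostly of middle or low rank. Their median percentile was 41.8, with a range of 5.11 to 83.3. Those of BAX and BID were above the list median, and none was in the top 10%. A RUNX2 peak at or above the median score was thus in reach of 2 of 10 members, near the 21.5% of protein-coding genes that had one. CBFB peaks spread more widely, with a median percentile of 45.4 and a range of 1.12 to 94.9. Of these, 4 stood in the top 10% of the CBFB list, those that overlapped RUNX2 peaks at MCL1, BAX, BBC3 and BID. A CBFB peak at or above the median score was in reach of 7 of 10 members, beside 43.4% of protein-coding genes.

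**Figure D4:**
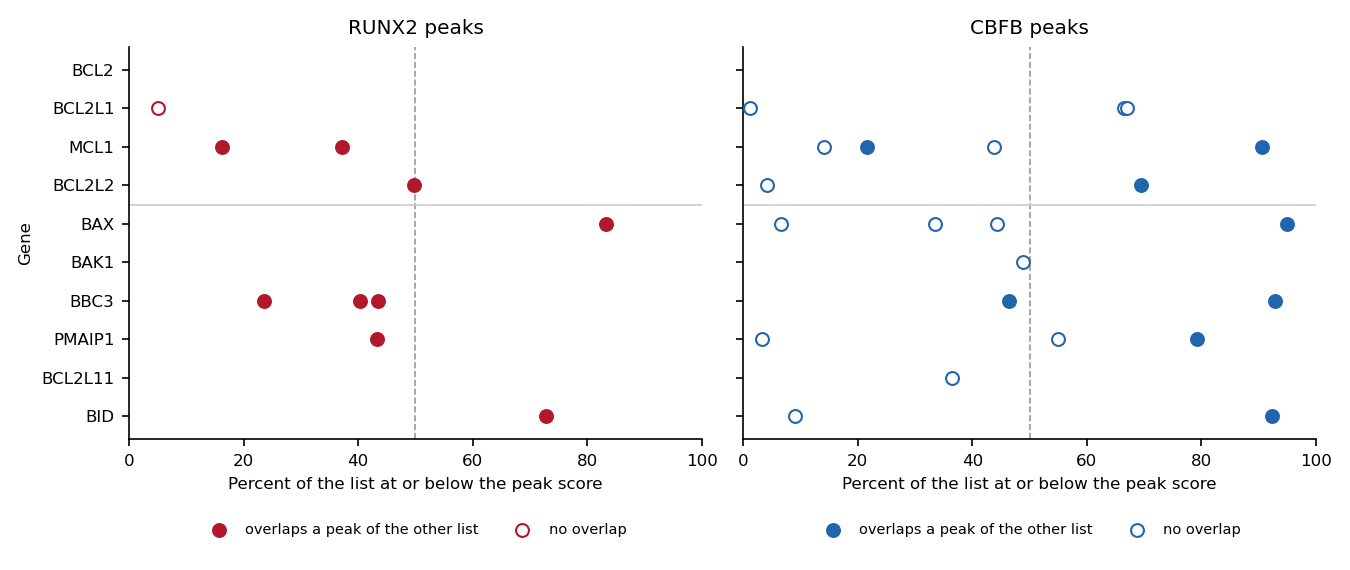
Percentile of each RUNX2 peak (left, red) and CBFB peak (right, blue) within its own list, by gene. Filled points overlap a peak of the other list, open points do not, the dashed line marks the middle of the list and the grey line divides antiapoptotic from proapoptotic genes. The highest-ranked CBFB points are filled, and the single open RUNX2 point is the low-ranked peak of BCL2L1.

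At least 1 bp of a CBFB peak was shared by 9 of the 10 RUNX2 peaks (90.0%, exact 95% interval 55.5 to 99.7), beside 94.2% of the whole RUNX2 list. In turn, 8 of the 22 CBFB peaks shared sequence with a RUNX2 peak (36.4%, interval 17.2 to 59.3), beside 33.8% of the whole CBFB list. Both shares were near those of the lists. The intervals are Clopper-Pearson intervals and cover counting error only. In 5 cases the RUNX2 peak lay wholly inside the CBFB peak. In all 9 the CBFB peak had the higher percentile, as it did for 84.8% of all overlapping RUNX2 peaks of the list. The CBFB list is the longer one, with 27246 peaks against 9941, so percentiles of both lists are not on a common scale. They do not compare the strength of binding of RUNX2 and CBFB. The midpoints were 6 to 808 bp apart, with a median of 254 bp, and the widest gap was at BBC3, where 1 CBFB peak covered a pair of RUNX2 peaks. CBFB peaks with a RUNX2 partner had a median percentile of 84.9, and those without had 34.9. Above the list median were 6 of 8 and 3 of 14, beside 84.4% and 32.5% over the whole CBFB list.

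A RUNX core lay within 100 bp of the midpoint in 4 of 10 RUNX2 peaks (40.0%, exact 95% interval 12.2 to 73.8), beside 43.2% of all RUNX2 peaks. These were the peaks of BCL2L1, BAX, the second of BBC3 and the ENSA intron. For CBFB the count was 5 of 22 (22.7%, interval 7.82 to 45.4), beside 41.6% of all CBFB peaks, whose share lay inside the interval. Anywhere in the peak, a core was found in 6 of 10 RUNX2 peaks, beside 78.1% of the list, and in 17 of 22 CBFB peaks, beside 80.9%. Peaks without any core therefore included some of the higher-ranked ones, such as the pair at BID. A missing core says only that these 6 letters were not in the sequence.

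Other motifs were searched in the same windows on both strands. The GC box GGGCGG, the sequence known for binding SP proteins at promoters, was found in 4 of 10 RUNX2 peaks (interval 12.2 to 73.8), beside 13.7% of the list. It was present at BCL2L2, BAX, the first BBC3 peak and the CCDC9 peak of BBC3. Of the 10 RUNX2 peaks, 5 had a midpoint within 500 bp of a protein-coding start, beside 17.9% of the list. Windows around genes hold gene starts by construction, and the part of this in the motif counts was not tested. In CBFB peaks the GC box was found in 5 of 22, beside 13.5%. The windows of the BCL2L2 and the first BBC3 peak are shown with the GC box or its complement CCGCCC in capitals. They held 1 and 5 copies.
BCL2L2-PABPN1 intron, chr14:23790345-23790545, plus strand: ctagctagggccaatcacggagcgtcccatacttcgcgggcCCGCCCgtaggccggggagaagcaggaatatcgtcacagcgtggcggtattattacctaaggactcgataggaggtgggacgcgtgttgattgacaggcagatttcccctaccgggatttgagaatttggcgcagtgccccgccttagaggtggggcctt
BBC3 intron, chr19:47729323-47729523, plus strand: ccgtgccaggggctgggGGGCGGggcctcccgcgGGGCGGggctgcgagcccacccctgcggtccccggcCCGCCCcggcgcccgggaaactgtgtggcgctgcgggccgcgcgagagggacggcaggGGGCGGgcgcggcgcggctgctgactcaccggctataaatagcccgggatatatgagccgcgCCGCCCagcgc

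The AP-1 motif TGANTCA was found in 2 of 10 RUNX2 peaks, at BBC3 and in the ENSA intron, beside 13.1% of the list, and in 3 of 22 CBFB peaks, beside 11.9%. The E-box CACGTG was found in 1 RUNX2 peak, at CCDC9, beside 3.07%, and in 3 of 22 CBFB peaks, beside 3.25%. The ETS motif CCGGAA was found in 0 of 10 and 0 of 22 peaks, which allows shares of up to 30.8% and 15.4% at the upper exact 95% limit, beside 6.10% and 4.90% of the lists. The TEAD motif GGAATG was found in 0 of 10 RUNX2 and 2 of 22 CBFB peaks, beside 15.5% and 14.4%. For each of these motifs and the GC box, in both lists, the share of the whole list lay inside the exact interval of the share near the 10 genes.

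The other genes of the pathway, 26 in all, were counted in the same way. A RUNX2 peak was in reach of 9 of them (34.6%), near the 36.0% of all protein-coding genes. A CBFB peak was in reach of 20 (76.9%), beside 62.2% of all protein-coding genes. By group, RUNX2 peaks were near 6 of 11 other BCL2 family genes, 3 of 13 genes of caspase activation and neither of the mitochondrial channel genes VDAC1 and VDAC2. CBFB peaks were near 8 of 11, 10 of 13 and both channel genes. The highest RUNX2 percentiles in reach were 96.3 at BCL2L15, 86.4 at BMF and 71.7 at BIRC5. BMF, a BH3-only gene, had 3 RUNX2 and 4 CBFB peaks in reach, as many RUNX2 peaks as BBC3. BIRC5 encodes survivin. No peak of either list was in reach of BCL2A1, BIK, HRK, CYCS, CASP9 or DIABLO, which include the genes of cytochrome c and of its downstream initiator caspase.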

How the data were processed

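Peak lists of 2 ChIP-seq libraries from SAOS2 cells were analysed, 1 per antibody. Groups were taken from the sample labels. The authors deposited, for each library, the position of every peak and a score in the fifth column, read here from the peak names and the range of values as the MACS score (-10 times log10 of the p-value). The submitters' processing notes name CASAVA 1.8.2, MACS 1.4.1 and hg19. The aligner, the calling threshold, the depth and whether the input served as control are not given in the sources used here. Without depth, scores were ranked within a list only.

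The annotation was GENCODE release 44, lifted to GRCh37. Peaks on other contigs (13 RUNX2 and 42 CBFB) were left out of steps that used the annotation or the sequence. A peak belonged to a gene when any base lay within 25 kb of the gene body. Peaks overlapped when they shared at least 1 bp. Motifs were searched within 100 bp of the midpoint. The main shares carry exact Clopper-Pearson 95% intervals. Genes and peaks are not replicates, so no p-value was computed. The counting and overlap steps were tested on simulated data. Named were the 10 members with all their peaks, genes whose start was nearest to such a peak, and, of 26 other pathway genes, the 3 with the highest RUNX2 score in reach and those without a peak. Members, lists and motifs were chosen with earlier results of these data known. Alternatives covered the reach, the gene model, the score limit, the overlap rule and the motif. Python 3.11.15 was used with numpy 2.4.6, pandas 2.3.3, scipy 1.17.1, pysam 0.24.0 and matplotlib 3.10.9.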

Additional observations from a re-analysis of the deposited data

How the results depend on the processing

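Of 73 recomputed values, 41 stayed within 1.5 times the main value (or within the interval of a share), 26 moved and 6 changed sign. The 10 RUNX2 peaks became 6 with a reach of 5 kb, 28 with 100 kb, 5 when only the nearest start counted and 2 at or above the median score. The 22 CBFB peaks became 13, 56, 14 and 9 in the same order, and 8 when the CBFB list was shortened to the length of the RUNX2 list. Members with a RUNX2 peak fell from 7 to 4 with the nearest start and to 2 at or above the median score. The antiapoptotic minus proapoptotic difference in median RUNX2 density (-0.179 peaks per 100 kb) became 0.159 without BCL2, 1.09 with a reach of 10 kb and 0.167 with 100 kb, which are changes of sign. It was -0.0602 with the canonical transcript, -0.552 with the nearest start, -0.268 with 5 kb, -0.0788 with 50 kb, and 0 around the gene start and at or above the median score. The CBFB difference (0.240) turned to -1.06 with the nearest start, -0.638 with 5 kb and -0.305 with 50 kb. It was 0.459 without BCL2, 0.441 with the canonical transcript, 1.08 with 10 kb, 0.700 with 100 kb and 1.00 around the gene start. The cause of these changes was not tested. With midpoints at most 200 bp apart, 20.0% of RUNX2 and 9.09% of CBFB peaks had a partner. In the shortened CBFB list, the rule of at least 1 bp gave a partner to 75.0% of 8 CBFB peaks (interval 34.9 to 96.8). By that rule and list, 70.0% of RUNX2 peaks had a partner. A core anywhere in the peak was found in 77.3% of CBFB peaks, since longer sequence was searched. The canonical transcript and the omission of BCL2 were chosen after seeing the data. No paired analysis was possible because neither antibody had a replicate library. Depth is unknown, so a missing peak is no evidence that a protein was absent.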
